A study of Mus musculus with 50 samples.

Results

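Fat1, Fat2 and Fat4 encode giant cadherins, and Lrp1b encodes a giant receptor of the low-density lipoprotein (LDL) receptor family. Every variant annotated to these 4 genes with a single alternate allele was taken from the variant table of a mouse myeloma series, whatever its effect. This gave 45 variants of 25624, of which 27 lie in Fat4, 11 in Lrp1b, 4 in Fat2 and 3 in Fat1. A variant called in at least 2 tumours is termed shared and one called in 1 tumour private. The series holds exomes of mesenteric lymph node tumours, labelled malignant plasma cell, 45 samples of genotype IL6Myc, and of 5 kidneys of wild-type Balb/c mice. Calls of 44 tumours were used. The kidney samples and tumour 4 are not analysed here. The labels name no normal tissue from a tumour-bearing mouse, so inherited and acquired variants cannot be told apart. The labels give the tumours no age, strain or promoter for IL6 and Myc, and do not say whether each tumour came from its own mouse. The genes were chosen by name with their calls in this same table known, and shared and private variants are split on the number of carriers, so the counts of carriers are a description.

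Each value is the percent of reads at a site that carry the alternate allele, termed the read share. A heterozygous inherited variant lies near 50%. The read depth behind each percent is unknown, and a missing call can mean the reference base or too few reads. Tumours are numbered in the order of their labels. Each tumour had between 1898 and 5929 calls, and 12705 of all variants (49.6%) were private. Because the deposited titles run in separate blocks, carriers are also given by block, with 4 tumours titled 1199 to 1293, 18 titled 1501 to 1592 and 22 titled 1601 to 1628.

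Fat proteins stand in the plasma membrane. Their extracellular part is a long row of cadherin repeats followed by EGF-like and laminin G domains, and a tail reaches into the cytoplasm. Fat4 binds the cadherin Dchs1 on neighbouring cells and acts in planar cell polarity and in growth control through the Hippo pathway. Fat1 also acts on actin and cell adhesion and is mutated in several human cancers. Lrp1b binds and takes up extracellular ligands through cysteine-rich repeats, and its very long gene is often deleted or mutated in human tumours. Domains are given below from this general layout, since no protein sequence was used.

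The genes differed in how their variants were distributed over tumours. Fat4 carried mostly shared variants, 22 of 27, whereas 10 of 11 in Lrp1b, 3 of 4 in Fat2 and all 3 in Fat1 were private. The protein-altering variants of these 4 genes were all missense or frameshift. Fat4 had one called in 42 of 44 tumours (95.5%, exact Clopper-Pearson 95% interval 84.5 to 99.4%, covering counting error only). Lrp1b was altered in 7 tumours (15.9%, interval 6.64 to 30.1%), and Fat1 and Fat2 in 2 tumours each (4.55%, interval 0.555 to 15.5%). In counts over other genes, stop, start, in-frame indel and splice donor or acceptor changes were also taken as protein-altering. Over 21900 protein-coding genes, 7.32% had at least 1 protein-altering variant in some tumour. A shared one was found in 2.59%, a private one in 5.14% and private ones in at least 2 tumours in 0.411%. Lrp1b had private ones in 4 tumours, and Fat1 and Fat2 in 2 each. Nothing is read from these shares.

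**Figure D1:**
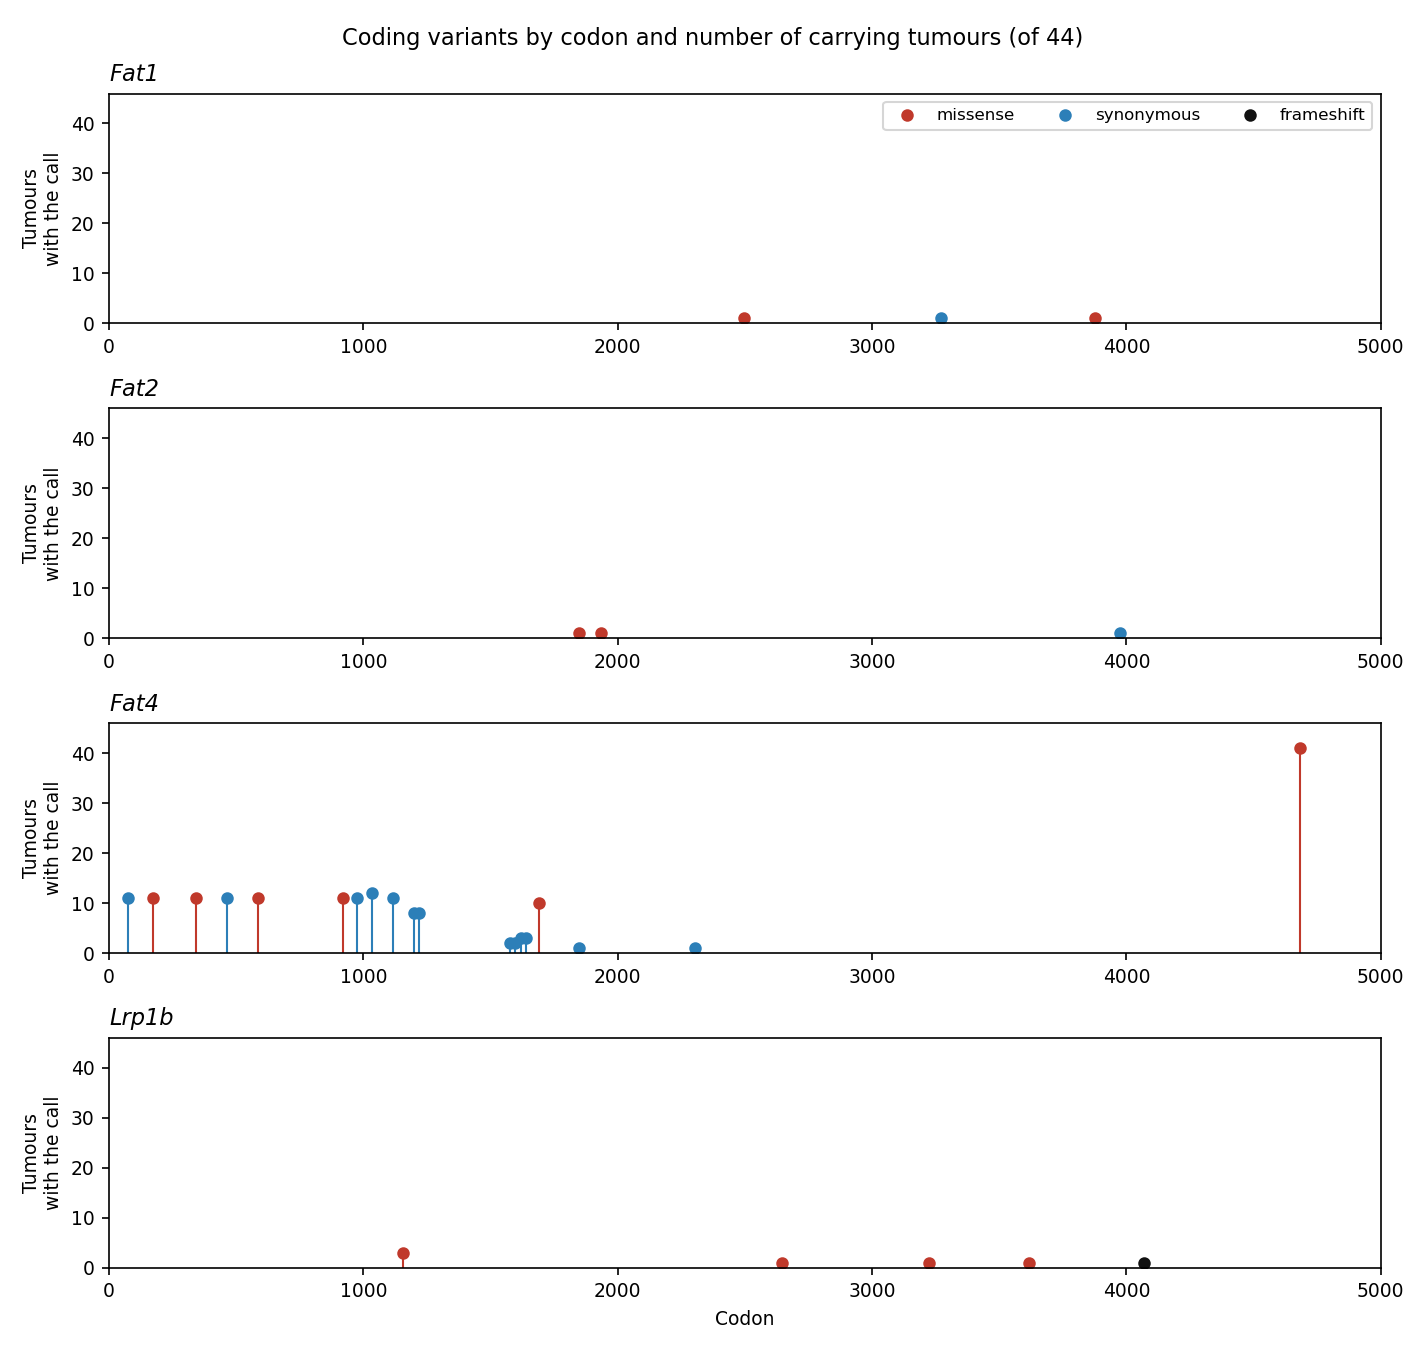
Number of tumours (of 44, vertical axis) in which each coding variant was called, against its codon, for each gene, with missense in red, synonymous in blue and frameshift in black. Fat4 alone has tall stems, 10 to 12 tumours over much of the first 1689 codons and 41 at codon 4683, while the tallest stem in the other genes is 3 tumours in Lrp1b.

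At the amino-terminal end of Fat4, 11 tumours shared a common group of variants. Of the 22 shared variants, 16 were coding and lay at a constant offset from coding base 1, at position 38886960 of chromosome 3 (mm10), so they fall in 1 uninterrupted stretch of the first coding exon. They ran from codon 73 to codon 1689, at positions 38887178 to 38892024. Of these, 5 were missense and 11 synonymous, and all the residues lie in the cadherin repeats.

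Among the Fat4 variants, 10 had exactly the same carriers, tumours 3, 6, 7, 9, 10, 12, 13, 14, 15, 17 and 19. They were the synonymous changes at Arg73, Phe464, Leu976 and Ser1117, the missense changes p.His172Arg, p.Phe340Leu, p.Glu586Lys and p.Val918Met, and 2 intronic changes. p.Glu586Lys, which puts a basic residue in place of an acidic one, had read shares with a lowest value of 35.6%, a median of 41.8% and a highest value of 56% over the 11 carriers. p.Val918Met had 37.8%, 53.85% and 60%, p.His172Arg 34.2%, 45.7% and 62.5%, and p.Phe340Leu 36%, 48.8% and 57.8%, in the same order. All 4 missense variants thus stayed between 34.2 and 62.5% in every carrier.

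Other variants of this stretch were called in some of the 11 tumours. p.Val1689Ile, a conservative change, was called in 10 of them, with a lowest read share of 35.7%, a median of 48.5% and a highest of 59.5%, and was not called in tumour 7. The synonymous changes at His1197 and Ser1220 were called in 8 and not in tumours 6, 7 and 10. Those at Ile1620 and Lys1639 were called in tumours 3, 14 and 17, and those at Phe1575 and Leu1595 in tumours 14 and 17, just inside the limit of 2 tumours, with medians of 46.02% and 51.9%. The pattern therefore differed within the group, and the table cannot say whether a missing call is a reference base.

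The per-tumour median over these shared variants of Fat4, without p.Gly4683Arg, averaged 48.4% ± 2.61 in the 11 carriers (SD, n = 11), with a range of 42.9 to 51.2%. One further call stood apart. The synonymous change at Thr1034 was listed in 12 tumours, at 39.6 to 55.1% in the 11 carriers and at 4.55% in tumour 11, which had no other call of the group. Tumour 11 had calls at 67 of the 583 shared variants in the 10 Mb below Fat4. This was not particular to it, as tumour 8, with no call of the group, had 63.

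**Figure D2:**
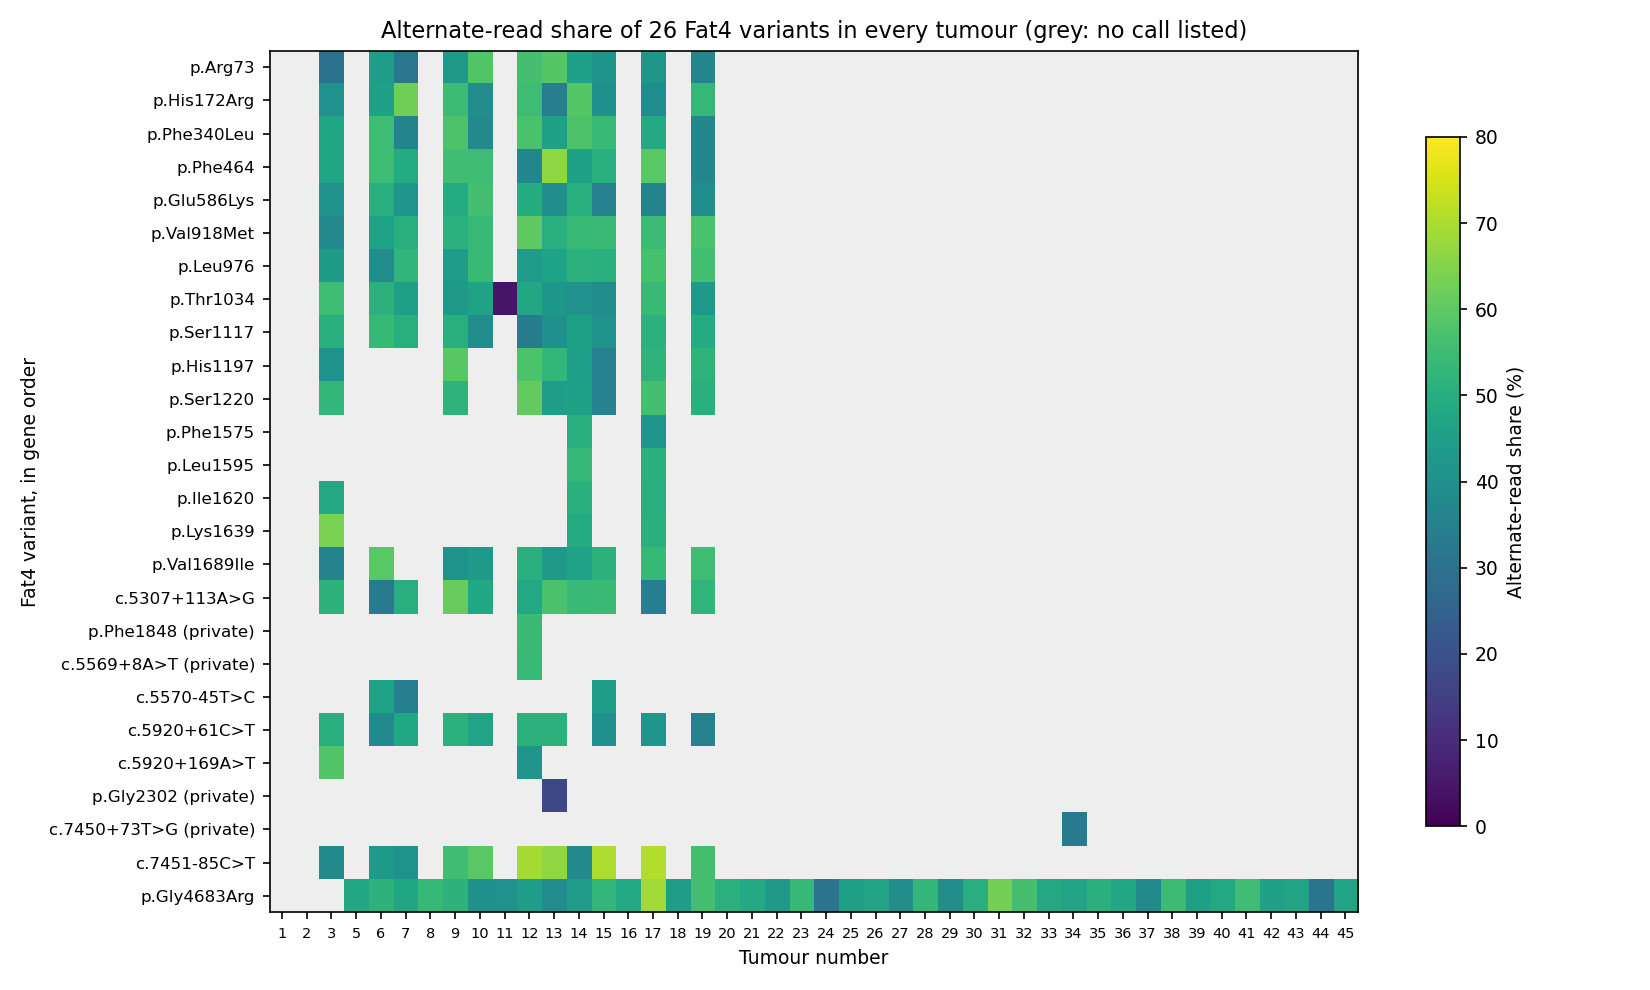
Read share in percent (colour) of 26 Fat4 variants (rows, in gene order, private ones marked) in each of 44 tumours (columns), with grey where no call is listed. The same 11 tumours form columns of calls over most rows, tumour 11 shows 1 dark cell at Thr1034, and the bottom row, p.Gly4683Arg, is filled in 41 tumours.

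The shared Fat4 group belongs to a longer run on chromosome 3. Another 230 variants in other genes had the identical 11 carriers. With those of Fat4 they start at position 32861735 and end at 38979566, which is the Fat4 intronic change c.7451-85C>T. In the 10 Mb below the gene the 11 carriers had 438 to 475 of 583 shared variants called, against 0 to 67 in the other 33 tumours. In the 10 Mb above the gene the table lists 2 shared variants. The nearest, in Intu, lies 1.66 Mb beyond p.Gly4683Arg and was called in tumours 12, 21 and 23. With so few variants there, the table does not show where the run ends. Of the 11 carriers, 1 is titled 1199 to 1293, 10 are titled 1501 to 1592 and none is titled 1601 to 1628. Of the 6727 variants called in at least 6 tumours, 37.7% had no carrier in the last block. That share includes the variants of this run and counts each variant of a run separately.

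At the carboxy-terminal end, p.Gly4683Arg (c.14047G>A, chromosome 3, position 39009943) had another set of carriers. It places an arginine in the cytoplasmic tail and was called in 41 tumours (interval 81.3 to 98.6%), in all but tumours 1, 2 and 3. The lowest read share was 30.8%, the median 47.7% and the highest 68.75%, with a mean of 47.8% ± 7.36 (SD, n = 41). Tumours 24 and 44 were lowest, at 30.8% and 31.03%, and tumours 17 and 31 highest, at 68.75% and 63.2%. In the 10 tumours that also carry the amino-terminal group it averaged 49.6% ± 8.81, and in the other 31 carriers 47.2% ± 6.89 (SD), with overlapping ranges of 38.98 to 68.75% and 30.8 to 63.2%.

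No other variant on chromosome 3 had the same 41 carriers as p.Gly4683Arg, but 454 variants elsewhere did. Of these, 447 lay on chromosome 1, where the single-base ones spanned positions 82729275 to 140163052, and 46 of the 447 alter a protein. Within each tumour, p.Gly4683Arg was set beside the median of the 413 single-nucleotide variants (SNVs) among them. It averaged 47.8% ± 7.36 against 49.0% ± 1.97 for the chromosome 1 variants, a mean difference of -1.26 ± 7.38 percentage points (SD, n = 41 tumours). p.Gly4683Arg was the higher of the pair in 16 of 41 tumours. The single variant spreads more widely than a median over many, and the mean difference was not tested.

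**Figure D3:**
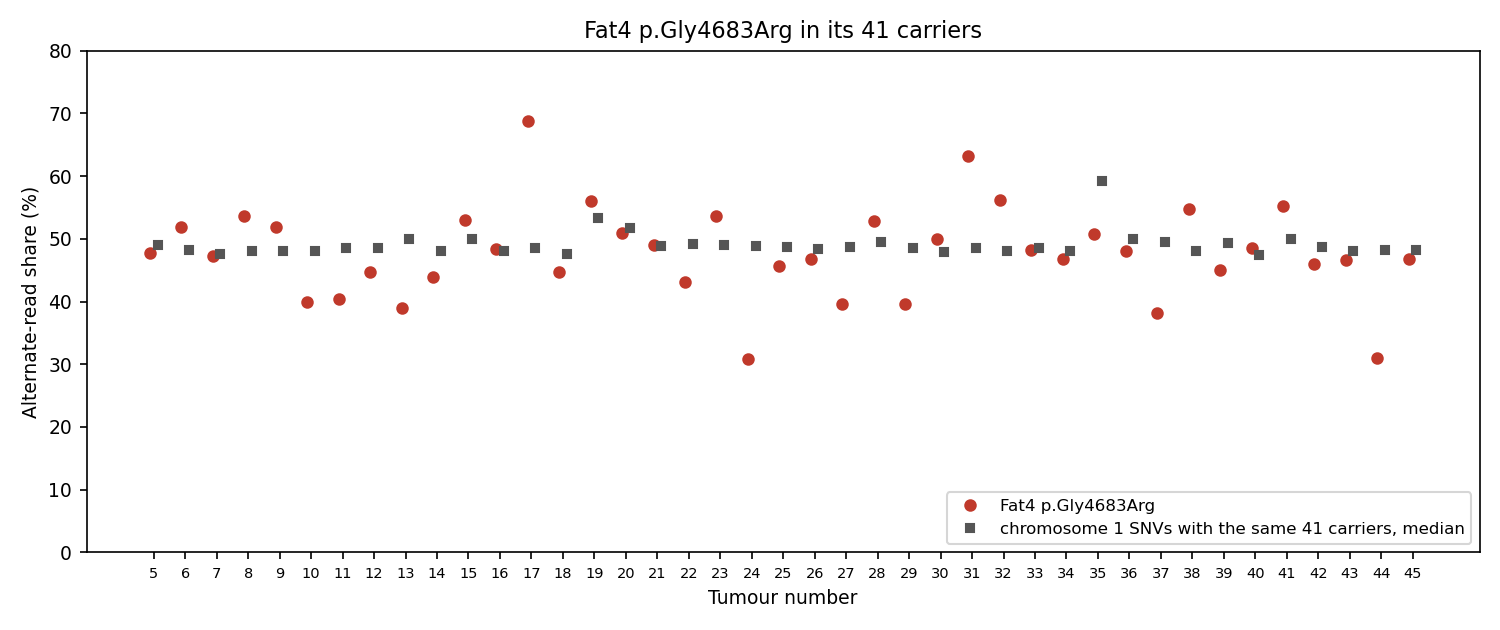
Read share in percent (vertical axis) of Fat4 p.Gly4683Arg (red circles) and the median of 413 chromosome 1 SNVs with the same carriers (grey squares) in each of 41 tumours. The circles scatter from 30.8 to 68.75% around squares that lie between 47.4 and 59.2%.

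The read share of the shared Fat4 SNVs did not pass the test against neighbouring variants. In each tumour the mean share of the gene's shared SNVs was set against the median of the tumour's other shared SNVs within 10 Mb, for every gene with at least 6 such tumours. For Fat4, 13 tumours qualified, and the gene averaged 46.8% ± 7.65 against 48.9% ± 1.13 for its neighbours (SD, n = 13). The difference of -2.04 ± 8.44 percentage points, with the gene higher in 6 of 13 tumours, had an adjusted p of 0.858 (exact two-sided sign-flip permutation test, Benjamini-Hochberg over 1002 genes, of which 11.6% passed at 0.05). Tumour 11 decided this value. Its Fat4 mean was 22.5%, from the 4.55% call and p.Gly4683Arg at 40.5%, against 52.0% for its neighbours. Without tumour 11, the difference was 0.248 ± 1.92 points (SD, n = 12, adjusted p = 0.86, exact permutation). Fat1, Fat2 and Lrp1b could not be tested in this way, as the first pair have no shared SNV and Lrp1b has 1 in 3 tumours.

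**Figure D4:**
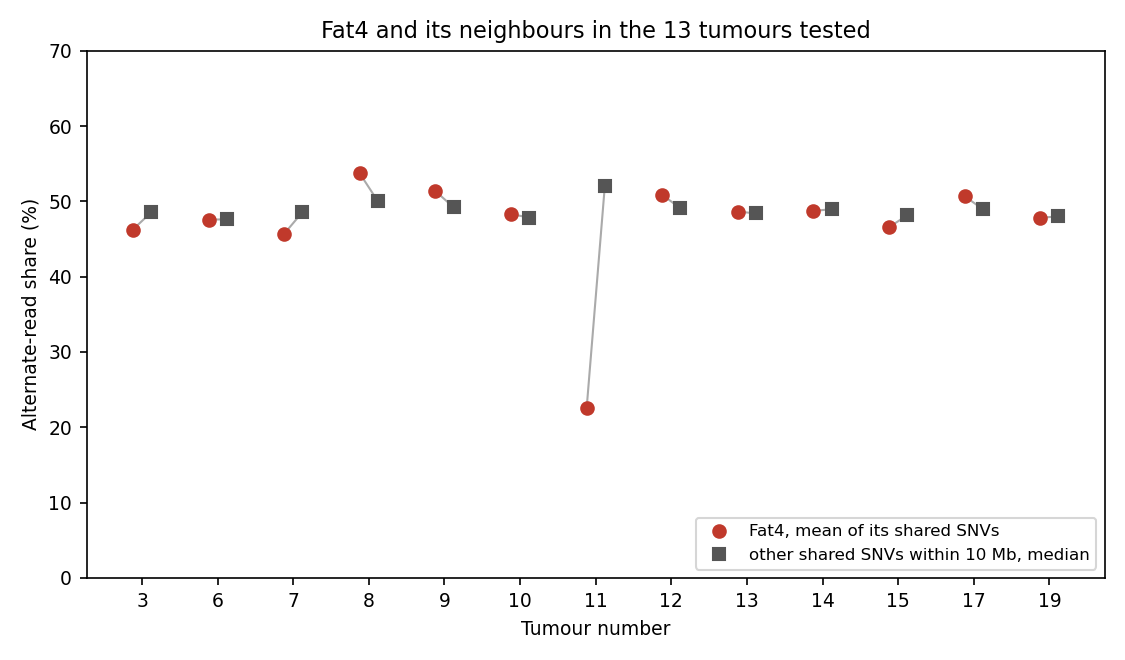
Mean read share of the shared Fat4 SNVs (red circles) and median of the other shared SNVs within 10 Mb (grey squares), in percent, in each of the 13 tumours tested. In 12 tumours the pairs lie within 4 points, and in tumour 11 Fat4 is at 22.5% against 52.0%.

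Fat4 had 5 private variants, none of them protein-altering (0 of 44 tumours, which allows up to 8.04% by the exact interval). In tumour 12 the synonymous change at Phe1848 was at 54.55% and the splice region change c.5569+8A>T, 33 bases further on, at 54.2%, beside a median of 49.1% for that tumour's 400 shared SNVs within 10 Mb. The synonymous change at Gly2302 in tumour 13 was at 17.3%, against 48.4% for 378 such SNVs. In tumour 34 the intronic c.7450+73T>G was at 33.3%.

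Lrp1b had 1 shared variant. p.Cys1157Tyr (c.3470G>A, chromosome 2, position 41344468) removes a cysteine from the extracellular part, whose repeats are held by disulfide bonds. Tumour 1 had a read share of 48.65%, tumour 2 of 53.7% and tumour 3 of 34.6%. These are the 3 tumours without a call of Fat4 p.Gly4683Arg, so every tumour had a protein-altering call in Fat4 or Lrp1b. Tumour 3 had such calls in both genes, as did tumours 11, 14, 36 and 42 through private Lrp1b variants. A complement like that of p.Cys1157Tyr and p.Gly4683Arg is not particular to these genes. Another 47 protein-altering variants had the 41 carriers of p.Gly4683Arg, and another 46 had these 3. Nothing is read from it.

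The carriers of p.Cys1157Tyr again matched variants on other chromosomes. Of 541 further variants with exactly these 3 carriers, 409 lay on chromosome 11, 112 on chromosome 8 and 10 on chromosome 2. The nearest shared variants on chromosome 2 were 2.21 Mb below and 3.99 Mb above, were called in 2 tumours each and had 0 and 1 carriers in common with it. In tumour 3, where p.Cys1157Tyr was lowest, the median of the 345 chromosome 11 SNVs with the same carriers was 29.4% and that of the 100 on chromosome 8 was 53.2%. In tumours 1 and 2 the chromosome 11 medians were 47.5% and 46.7%, and the chromosome 8 medians 48.3% and 48.9%.

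The 10 private variants of Lrp1b were spread over 9 tumours, and 4 of them alter the protein. The frameshift c.12206delA, p.Asn4069Thrfs*8, was called in tumour 11 at 45.45%. It shifts the frame in the extracellular part, ahead of the membrane-spanning segment. The missense change p.Leu3222Trp was at 28% in tumour 36. The other missense changes were at low shares, p.Glu3616Asp at 5.19% in tumour 42 and p.Asn2647Lys at 4.23% in tumour 14. Of the 6 intronic variants, 4 were T>C changes when referred to the pyrimidine base, at 7.14 to 33.3%, 1 was a T>A change at 12.5% and 1 a deletion at 53.85%. Tumour 30 held 2 of them, at 7.14% and 33.3%.

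By length Lrp1b spans 2058309 bases (chromosome 2, 40595290 to 42653598, RefSeq GRCm38.p6), rank 5 among protein-coding genes. In 74 other genes at least as many private variants were listed. Among the 59 genes with a span of 1 Mb or more, 36 had a private variant. The median over all 59, those without one included, was 1, and Agbl4 with 14 was the other one to reach the 10 of Lrp1b. Private protein-altering variants were called in at least 4 tumours in 3 other genes. Span counts introns, which the capture targets little, and coding length was not used.

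Fat2 combined a shared intronic deletion with private coding variants. The deletion was called in 6 tumours. Tumour 31 had 62.5%, tumour 36 had 54.55%, tumour 38 had 30%, tumour 40 had 36.4%, and tumours 43 and 44 both had 41.7% (mean 44.5% ± 11.98, SD, n = 6). All 6 carriers are titled 1601 to 1628. Of the 6727 variants called in at least 6 tumours, 12 (0.178%) had this pattern, the deletion included. Variants with more carriers than the 22 tumours of that block cannot have it. The share is therefore no measure for variants with 6 carriers. No other variant had the same 6 carriers. The deposited reference allele, on the plus strand at chr11:55295910-55295918 of mm10, is shown because the deletion takes out 2 copies of a 4-base purine unit, with the removed bases in capitals.
Fat2 c.3945+156_3945+163delTTTCTTTC: gGAAAGAAA

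The private Fat2 variants were p.Thr1847Met and p.Arg1934Gly, in the cadherin repeats, and a synonymous change at Cys3976, between the repeats and the membrane. p.Thr1847Met in tumour 3 had a read share of 73.0%, the highest of all 21 private variants described here. Tumour 3 had 1 shared SNV within 10 Mb of it, at 24%. p.Arg1934Gly was at 17.9% in tumour 41, and the Cys3976 change was at 18.2% in tumour 36, which also carries the intronic deletion.

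Fat1 had 3 private variants, and none was above 11% of reads. p.Asn2497Thr, in the cadherin repeats, was at 10.96% in tumour 13. p.Thr3876Ser, past the repeats, was at 6.98% in tumour 31, and the synonymous change at Ala3270 was at 3.85% in tumour 15. No shared Fat1 variant was listed.

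Over the 4 genes, the 21 private variants had a median read share of 18.2% (quartiles 10.96 and 36.4%), against 25% (quartiles 11.8 and 47.8%) for the 12684 private variants elsewhere. Of the 21, 11 were below 20% (52.4%), against 44.1% elsewhere. For SNVs alone the medians were 17.9% over 19 and 18.2% over 9884. The ranges overlap widely and no test was made, because the genes were chosen with these calls known.

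**Figure D5:**
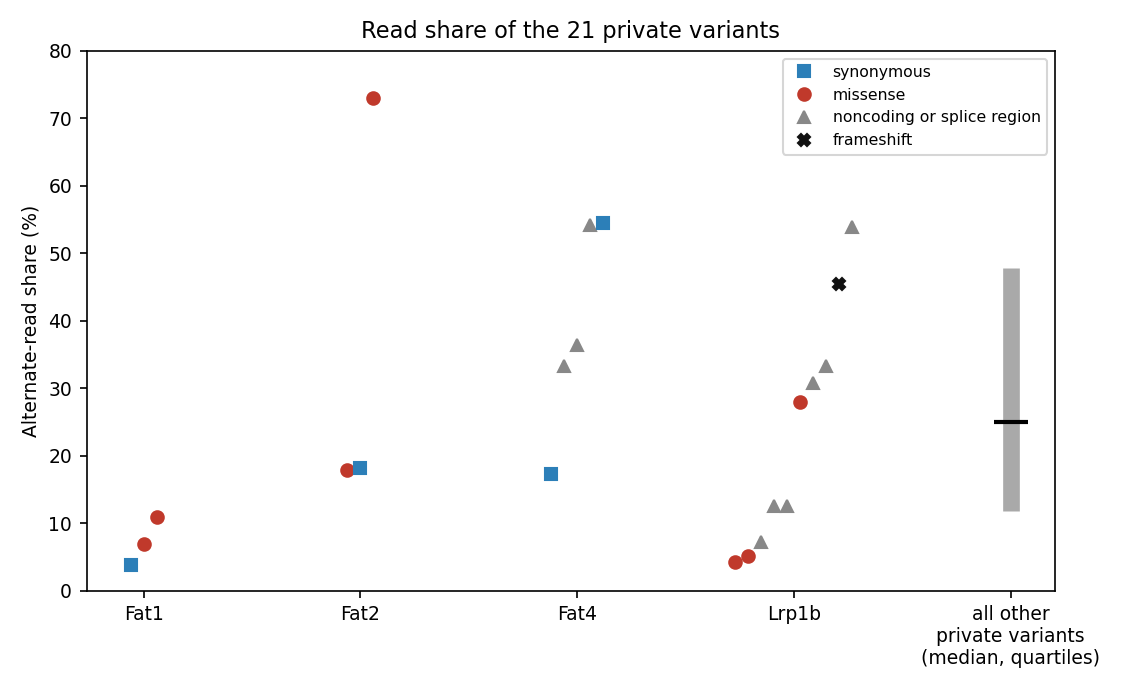
Read share in percent of each private variant in Fat1, Fat2, Fat4 and Lrp1b, marked by effect, beside the median (line) and quartiles (bar) of the 12684 other private variants, 25%, 11.8% and 47.8%. All 3 Fat1 points lie below 11%, while Fat2 p.Thr1847Met stands at 73.0%.

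Private variants were found in 16 tumours, 5 of which held 2. Tumour 13 had one in Fat1 and one in Fat4, tumour 34 one in Fat4 and one in Lrp1b, and tumour 36 one in Fat2 and one in Lrp1b. Tumours with such a variant had a median of 264.5 private variants over all genes, against 190 in the 28 tumours without. Both C>A changes, Lrp1b p.Asn2647Lys and the Fat1 Ala3270 change, were below 5% of reads. In their tumours, 14 and 15, C>A made up 95 of 281 and 78 of 238 private SNVs, of which 34 and 19 were below 10%. The part of private load and of low-share C>A calls in these counts was not tested.

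The missense to synonymous numbers of the 4 genes lay close to those of the rest of the table. Private variants comprised 7 missense and 4 synonymous (ratio 1.75), against 1237 and 745 elsewhere (1.66). Shared variants comprised 7 missense and 11 synonymous (0.636), against 800 and 1464 elsewhere (0.546). Fat4 alone had 6 and 11 among shared variants (0.545) and 0 and 2 among private ones, and Lrp1b had 4 missense and no synonymous variant in all. With so few coding variants, and linked ones in Fat4, these ratios are descriptions. Transitions made up 21 of 23 shared SNVs in the 4 genes, against 70.9% elsewhere, and 10 of 19 private ones, against 54.4%.

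Some genes had nearly the same tumours altered. By the Jaccard index over tumours with a shared protein-altering variant, Kiss1 on chromosome 1 matched the 42 tumours of Fat4 fully (index 1), and 3 genes tied at 0.977, of which Akr1c6 on chromosome 13 and Nav1 on chromosome 1 come first by name. For Lrp1b, 35 genes had the same 3 tumours, the nearest on chromosome 2 being Ttf1 at 12.3 Mb and the titin gene Ttn at 35.5 Mb, followed in the order of names by 1700020L24Rik on chromosome 11. Genes of one chromosome can share carriers through linkage, and its part here was not tested. Fat4 lies on chromosome 3 and Lrp1b on chromosome 2. Of the named matches, only Ttf1 and Ttn lie on the chromosome of the gene they match.

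Genes of related pathways were counted by list. Of 16 further genes of Fat and Dachsous cadherins and planar polarity, 1 had a protein-altering variant (6.25%): the polarity gene Prickle2, with the private p.Arg785Cys at 8.33% in tumour 5. Fat3, the remaining Fat gene, had 2 private intronic variants, at 19.05% in tumour 2 and 14.3% in tumour 5. Of 20 Hippo pathway genes, 1 was altered (5%), the gene Amotl2, whose product binds the Hippo effector Yap1. It carried p.Ser684Asn in 30 tumours, with a median of 52.3% of reads, and the private p.Gln555Lys at 7.5% in tumour 16. Of 17 genes of the LDL receptor family and its partners, none had a protein-altering call, and 7 had another variant, among them Lrp1 with an intronic change in 26 tumours at a median of 47.1%. These shares of genes stand beside 7.32% for all protein-coding genes.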

How the data were processed

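Exome DNA of the tumours was captured with an Agilent mouse exon design, per the labels' protocols, and variants were called with GATK on mm10, per the submitters' processing notes. No source used here names the aligner, filters, annotation tool or use of the kidneys. The authors deposited 1 table with a percent or a dot per tumour, matched to the labels by title. No header defines the percent, and it was read as alternate-read share from its values. Of 25823 rows, 199 with several alternate alleles were left out, none in these genes.

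Carriers carry exact 95% intervals. The read-share test used at least 5 neighbouring SNVs within 10 Mb and at least 6 tumours per gene. It enumerated sign flips up to 16 tumours and drew 100000 otherwise. In data simulated at a fixed depth, it passed 1.84% of 762 genes without a shift. It passed 54% of 100 genes shifted by 5 points and 81% of 100 shifted by 10, so shifts of this size can be missed. Python 3.11.15, pandas 2.3.3, NumPy 2.4.6 and SciPy 1.17.1 were used. Gene spans came from RefSeq (GRCm38.p6). A private noncoding Fat4 variant is counted but not reported here. All 4 genes, their variants with a protein change, the 3 genes closest by Jaccard index (ties taken by distance on the chromosome, then by name) and altered genes of the lists are named. Genes, lists and tests were chosen with earlier results of these data known. Numbers of tumours limit precision, and p-values measure spread between these samples, which the labels do not tie to separate mice.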

Additional observations from a re-analysis of the deposited data

How the results depend on the processing

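A minimum read share removed mainly private calls. At 20% the private variants of the 4 genes fell to 10, and the tumours with a protein-altering variant were 0 for Fat1 and 1 for Fat2; at 10% Fat1 kept 1. With private variants alone the number was 0 for Fat4 and 4 for Lrp1b. The Fat4 read-share difference kept its sign and missed the threshold in the 5 other settings that gave a value, but leaving out tumour 11, chosen after seeing the data, turned it to 0.248 points. The blocks titled 1199 to 1293 and 1601 to 1628 gave no value, having under 6 tumours with enough neighbours. At 20%, private missense variants numbered 2 and synonymous 1. Leaving out tumour 2 or 5 could not change the missense or synonymous numbers, as neither tumour has a private variant in the 4 genes, and so says nothing about their stability. Depth is unknown, so low shares cannot be weighed against counting error. No paired analysis was possible because the deposited calls cover no kidney and the labels tie no kidney to a tumour-bearing mouse.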
